A study of Rattus norvegicus with 5 samples.

Results

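The genes described here are 9 rat genes of interferon response and antigen presentation: the transcription factor Irf1, the antiviral GTPases Mx1 and Mx2, the immunoproteasome subunits Psmb8 and Psmb9, the peptide transporter subunits Tap1 and Tap2, the class I light chain B2m and the class II invariant chain Cd74. Every probe set whose platform annotation gave 1 of these symbols was taken, which gave 15 probe sets of 8740. They stand for 9 of 4736 genes with a symbol. One further probe set that carried several symbols, B2m among them, was not used. All 15 lay above the floor of the analysis, a scaled intensity of 172.53, on all 5 arrays, so no member value is a bound.

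The study used rat lung RNA on 5 one-colour oligonucleotide arrays, 1 pool of equal RNA amounts per array. Rats of 3 groups had received EHC-93, an urban particulate matter, by instillation into the trachea. The early pool held RNA taken after 2, 4 and 6 h, the intermediate pool after 15, 18 and 21 h, and the late pool after 24, 32 and 40 h. The sham pool came from saline-instilled rats after 2, 15 and 24 h, and the untreated pool from 3 rats without instillation. The sources used here do not give strain, sex, age or dose, nor the number of rats behind each instilled pool. Each group is 1 array, so single-array differences have no replicate error and no p-value. The 3 exposed pools share the sham and the untreated array as their reference, and the sham times match the exposed times only in part. Markers of alveolar type 2 cells, which make surfactant, were bright on every array, with Sftpc between 48084 and 71970 in scaled intensity.

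Interferons bind receptors that signal through JAK kinases and STAT factors. STAT dimers bind a GAS element in genes such as Irf1, and STAT and IRF complexes bind an interferon-stimulated response element (ISRE) in genes such as the Mx family. In the class I pathway the immunoproteasome cuts cytosolic proteins into peptides, the Tap1-Tap2 transporter carries them into the endoplasmic reticulum, and they are loaded onto a heavy chain paired with B2m. In the class II pathway Cd74 chaperones the class II dimer to endosomes. In lung, Cd74 and class II genes are made by macrophages, dendritic cells and B cells, and also by alveolar type 2 cells.

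Tap2, Psmb8, Tap1 and Psmb9 follow each other, in this order among protein-coding genes, between the class II genes RT1-DOb and RT1-DMb on chromosome 20 in RefSeq's table of the rat assembly GRCr8. The starts of Tap1 and Psmb9, which run in opposite directions, lie 457 bases apart. Promoter windows, from 250 bases before to 50 bases after the start, were found in RefSeq for 8 of the 9 genes (GRCr8), all but Mx2. Interferon is known to act on genes of this family through elements of both kinds, and stretches that hold their letters are shown. The letters searched on both strands were GAAANNGAAA for the ISRE and TTCNNNGAA for GAS. The ISRE letters were found in 4 of the 8 windows, against 3.92% of 33469 windows of all genes, and the GAS letters in 2 of 8, against 8.87%. The stretches around them follow, 5′ to 3′ on the strand of the gene, with the match in capitals (ISRE in the first 4, GAS in Irf1).
B2m, chr3:129549140-129549229, plus strand: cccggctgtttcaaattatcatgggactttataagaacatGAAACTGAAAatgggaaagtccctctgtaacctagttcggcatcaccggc
Tap1, chr20:4668615-4668704, minus strand: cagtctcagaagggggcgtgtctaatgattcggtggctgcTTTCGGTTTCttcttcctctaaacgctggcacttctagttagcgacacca
Tap2, chr20:4652297-4652377, minus strand: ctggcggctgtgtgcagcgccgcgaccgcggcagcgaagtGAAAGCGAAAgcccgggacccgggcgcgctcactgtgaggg
Psmb8, chr20:4657026-4657075, minus strand: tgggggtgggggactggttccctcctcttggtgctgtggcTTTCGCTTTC
Irf1, chr10:38417753-38417841, plus strand: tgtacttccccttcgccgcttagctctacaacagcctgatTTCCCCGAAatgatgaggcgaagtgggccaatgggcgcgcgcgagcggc

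The ISRE match of Tap1 spans bases -121 to -112 from the start, that of B2m -150 to -141, that of Tap2 -41 to -32, and that of Psmb8 -4 to 6. In Tap1 and Psmb8 it lies on the strand opposite to the gene. The GAS match of Irf1 spans -142 to -134, and Psmb8 holds a second kind of match, GAS letters at -245 to -237. The windows of Mx1, Psmb9 and Cd74 held neither run of letters. The ISRE match of Tap1 lies between the starts of Tap1 and Psmb9, 457 bases apart. It falls outside the Psmb9 window, which reaches only 250 bases before the start. For NF-kappaB, a factor of inflammatory signalling, the letters searched on both strands were GGGRNNYYCC (R is A or G, Y is C or T). They were found in the windows of B2m, Cd74, Irf1 and Tap1, 4 of 8 against 7.51% of all windows. In B2m this match follows the ISRE closely, at -137 to -128. A match is a run of letters and was not tested as a binding site.

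No member passed the 2-fold rule on an exposed array or the adjusted test of exposure. A probe set was called higher or lower where it lay at least 2-fold above or below both the sham and the untreated array. On the early array 0 of the 15 member probe sets were called higher, where 3.17% of the 6188 probe sets above the floor on at least 1 array were, and 0 lower, where 0.452% were. On the intermediate array the members called were 0 higher and 0 lower, beside 0.824% and 0.339% of all. On the late array they were again 0 and 0, beside 0.566% and 0.953%. With 15 probe sets and shares this small, a count of 0 is near the background. Between their highest and lowest array, 12 of the 15 members spanned less than 2-fold, as did 80.7% of all tested probe sets. The median span was 0.63 on the log2 scale for the members and 0.62 for all. The 3 that spanned 2-fold or more were Irf1 M34253_at (2.22-fold), Mx2 (2.15-fold) and Tap1 X57523_g_at (2.03-fold).

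**Figure D1:**
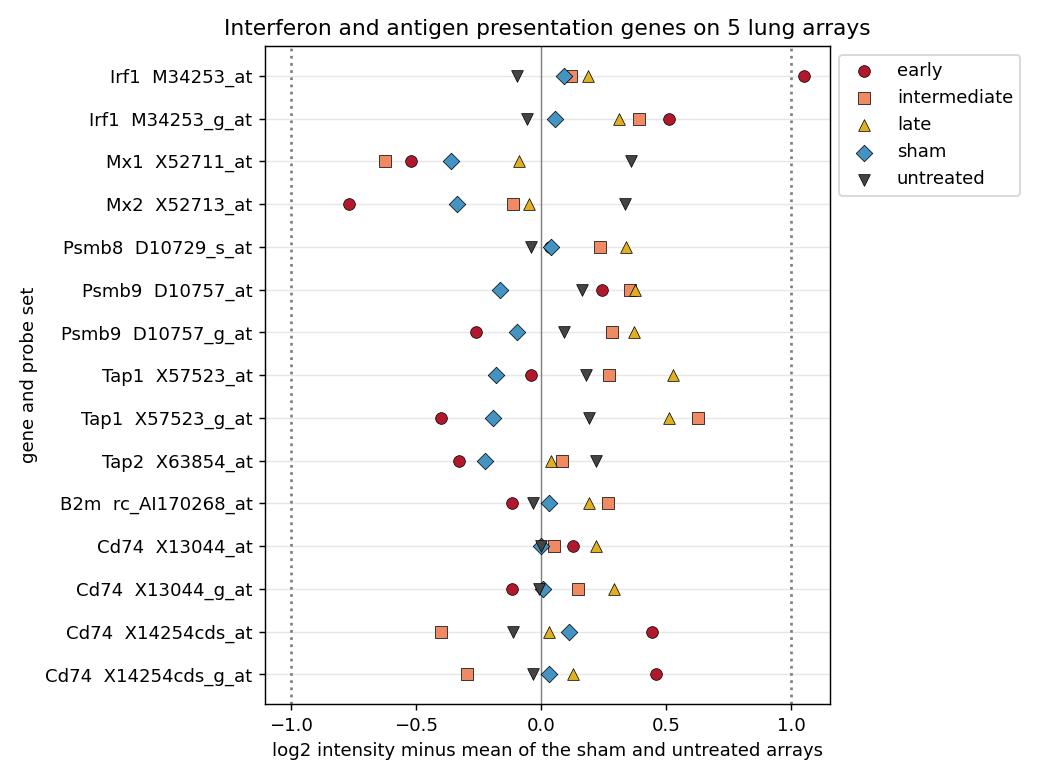
Log2 intensity of each of the 15 probe sets minus the mean of the sham and untreated arrays (x axis), 1 row per gene and probe set, with 1 point per array; the dotted lines mark a 2-fold difference from that mean. Apart from the first Irf1 probe set on the early array, at 1.05, every point lies inside the dotted lines; the early point of Psmb8, at 0.04, is hidden behind the sham point.

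Averaged over phases, 3 exposed against 2 unexposed arrays, limma called 0% of the 6188 probe sets at an adjusted p under 0.05 (Benjamini-Hochberg), and 0 of the 15 members. At an unadjusted p under 0.05 it listed 6.92% of all probe sets and 1 member, a probe set of Irf1. That member count was 0 with values as deposited, at an equal 75th percentile, after quantile normalization and with a floor at the 20th percentile, and 3 without the early array. The p-values measure the spread between these 5 arrays, in which differences between phases and between sham and untreated lung are part of the error. By their labels the 5 arrays are different conditions with 1 array each, so none is a replicate of another. The adjusted p-values of the members lay between 0.71 and 0.99.

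**Figure D2:**
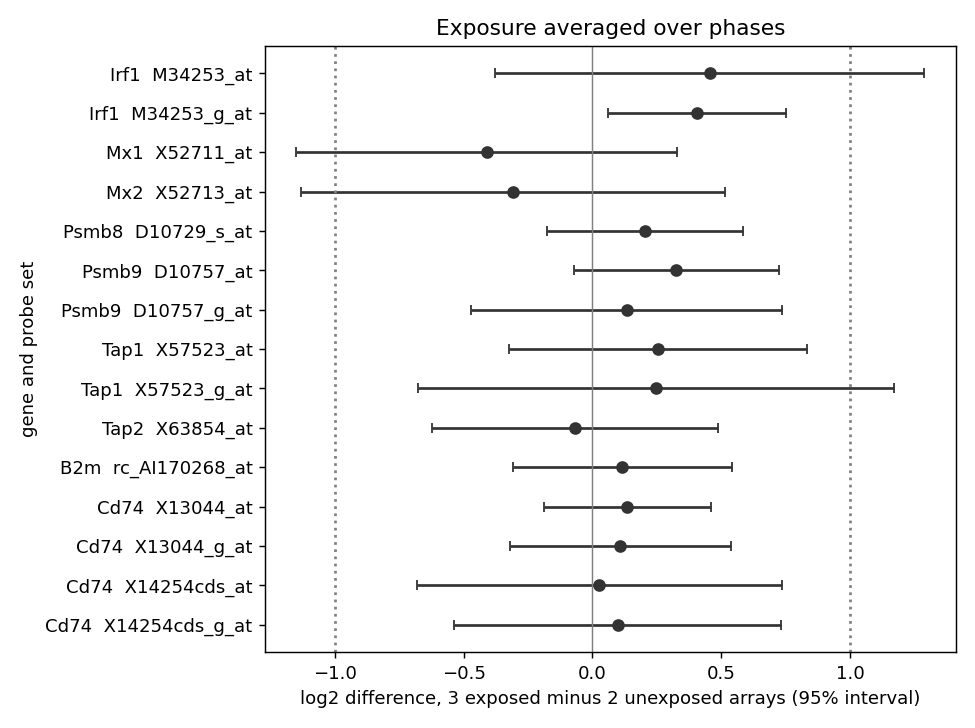
Log2 difference between the mean of the 3 exposed and the mean of the 2 unexposed arrays for each probe set (point) with limma's 95% interval (bar), dotted lines at a 2-fold difference. All intervals except that of Irf1 M34253_g_at include 0, and 4 of them, of Irf1 M34253_at, Mx1, Mx2 and Tap1 X57523_g_at, reach past a 2-fold difference.

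Irf1, the transcription factor that interferon-gamma induces and that in turn acts on the promoters of the class I pathway, had the highest early difference of the group. Its probe set M34253_at read a scaled intensity of 1929 in the early, 1010 in the intermediate and 1060 in the late pool, 991 in sham and 871 in untreated lung. The early array stood apart, and the other 4 lay close together. The early value was 1.95-fold above sham and 2.22-fold above untreated, so it fell short of the 2-fold rule against sham. It was 1.91-fold above the intermediate and 1.82-fold above the late array.

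The second Irf1 probe set, M34253_g_at, was designed on the same sequence and gave a smaller early difference. It read 4190 in the early, 3862 in the intermediate and 3648 in the late pool, 3055 in sham and 2827 in untreated lung. All 3 exposed arrays lay above both unexposed ones. The folds over sham were 1.37, 1.26 and 1.19, and over untreated 1.48, 1.37 and 1.29. The mean exposed minus unexposed difference was 0.41 on the log2 scale (SE 0.13, 95% interval 0.06 to 0.75, n = 3 and 2), with an adjusted p of 0.71 and an unadjusted p of 0.029 in limma's fit across all probe sets, so it did not pass. It was 0.28 with values as deposited, 0.31 at an equal 75th percentile and 0.27 after quantile normalization, with the unadjusted p above 0.05 in each. For M34253_at the difference was 0.46 (SE 0.32, interval -0.38 to 1.29, adjusted p 0.84), and 0.16 without the early array. The early array also had the highest ratio of 5′ to 3′ signal for control transcripts (43.1% for beta-actin against 9.07% to 24.4% on the others), and the highest summed level of the neutrophil markers on the array, 5172 against 1574 to 4130. That sum is mostly S100a8 and S100a9, as Cxcr2 and Mmp8, the other neutrophil markers on the array, were under the floor throughout. The markers called higher on the early array were S100a8 and S100a9 of neutrophils and Cd14 of macrophages. The part of these in the Irf1 values was not tested.

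Mx1 and Mx2, dynamin-like GTPases that block viruses and are standard readouts of type I interferon, were brightest in untreated lung. Mx1 (probe set X52711_at) read 1113 in the early, 1037 in the intermediate and 1503 in the late pool, 1244 in sham and 2050 in untreated lung. Mx2 (X52713_at; RefSeq gives Mx3 as a synonym) read 816, 1289, 1344, 1102 and 1754 in the same order. Both genes were highest on the untreated array, and the sham array lay within the range of the exposed arrays.

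Against sham, the exposed values of Mx1 were 0.90-fold early, 0.83-fold intermediate and 1.21-fold late, and those of Mx2 0.74-fold, 1.17-fold and 1.22-fold. Against untreated lung, Mx1 was 1.98-fold lower on the intermediate array and Mx2 2.15-fold lower on the early array. Saline instillation came with similar gaps: untreated lung was 1.65-fold above sham for Mx1 and 1.59-fold for Mx2. On the sham array no member was called at 2-fold above or below untreated lung, where 1.66% and 1.92% of all tested probe sets were. The exposed minus unexposed estimates were -0.41 for Mx1 (SE 0.29, 95% interval -1.15 to 0.33, adjusted p 0.84) and -0.31 for Mx2 (SE 0.32, interval -1.13 to 0.51, adjusted p 0.88) in limma. Without the untreated array they were -0.05 and 0.03, and without the early array that of Mx2 was -0.08, so the Mx1 estimate rests on the untreated array and that of Mx2 on the untreated and the early array. The genes share long similar stretches, and cross-reading between their probe sets cannot be told apart from expression.

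Among the member main probe sets, which are the brightest of each gene, Mx2 had the widest range over the arrays. By the root mean square difference of log2 profiles centred over the 5 arrays, its nearest of 2774 other named genes were Pcmtd1 (0.05), Cyp27a1 (0.08) and Mtarc2 (0.09). Pcmtd1 read 614, 970, 945, 872 and 1307, with the early array lowest and the untreated array highest, as for Mx2. With 5 points and many genes, near profiles are a description.

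**Figure D3:**
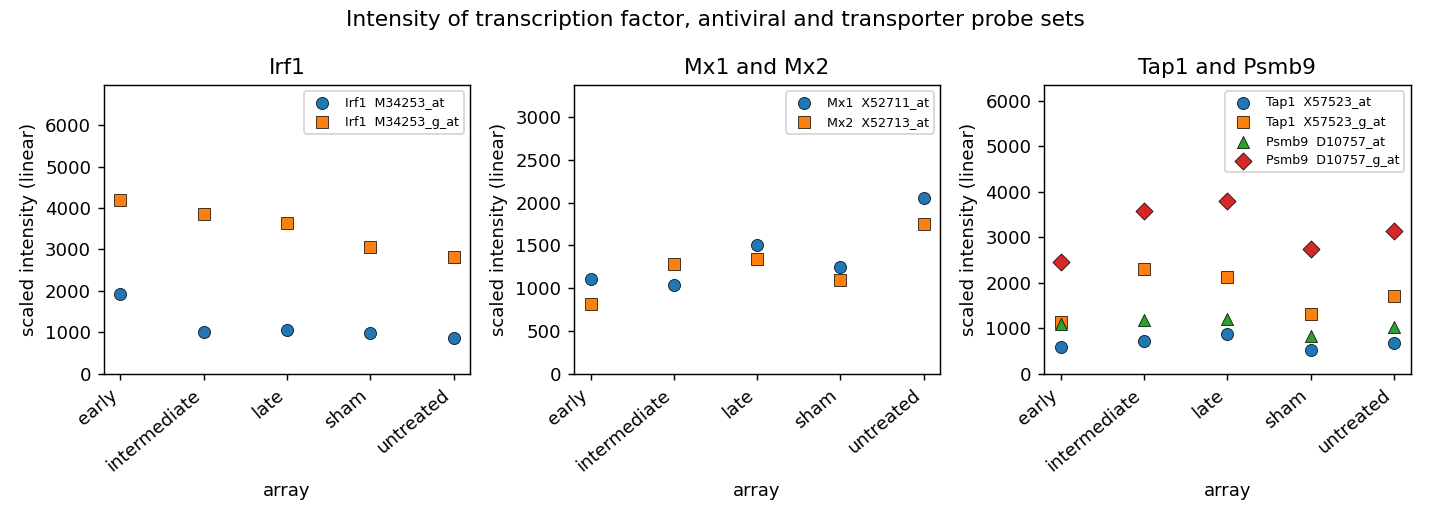
Scaled intensity (linear, y axis from 0) on the 5 arrays (x axis) for both Irf1 probe sets, for Mx1 and Mx2, and for the Tap1 and Psmb9 probe sets, 1 point per array. The early array is highest for Irf1, the untreated array for Mx1 and Mx2, and the intermediate or the late array for Tap1 and Psmb9.

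The immunoproteasome subunits read highest on the late array and Tap1 on the late or intermediate array under all 4 scalings, with differences under 2-fold from either control. Psmb8, the chymotrypsin-like catalytic subunit, read 2787 in the early, 3197 in the intermediate and 3437 in the late pool, 2791 in sham and 2640 in untreated lung. The early value lay next to sham, and the late value was 1.23-fold above sham and 1.30-fold above untreated. Psmb9, another catalytic subunit, read 1087, 1175, 1194, 820 and 1029 by D10757_at and 2454, 3581, 3808, 2754 and 3138 by D10757_g_at. By the first probe set all 3 exposed arrays lay above both controls, by 1.33-fold to 1.46-fold over sham and 1.06-fold to 1.16-fold over untreated. By the second the early array was the lowest of all, 1.12-fold below sham and 1.28-fold below untreated, so the probe sets differ in the direction of the early difference.

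Tap1, which forms the peptide transporter with Tap2, read 1136 in the early, 2312 in the intermediate and 2135 in the late pool, 1310 in sham and 1711 in untreated lung by X57523_g_at. The intermediate value was 1.76-fold above sham, 1.35-fold above untreated and 2.03-fold above the early array, the last being the widest gap between phases in the group. The probe set X57523_at gave 587, 729, 870, 532 and 683, again with the intermediate and late arrays on top, but with the early array between the controls and 1.24-fold below the intermediate one. Tap2 (X63854_at) read between 550 on the early and 805 on the untreated array. Its sham value of 591 lay near the early one, and the intermediate and late values, 731 and 709, lay between sham and untreated.

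None of these passed the test of exposure. Of the 2 probe sets each of Psmb9 and Tap1, the estimates on the log2 scale were 0.33 (SE 0.16, 95% interval -0.07 to 0.72, adjusted p 0.79) and 0.13 (SE 0.24, adjusted p 0.92) for Psmb9, and 0.25 (SE 0.23, adjusted p 0.86) and 0.25 (SE 0.36, interval -0.68 to 1.17, adjusted p 0.90) for Tap1, in limma. Psmb8 gave 0.20 (SE 0.15, interval -0.18 to 0.58, adjusted p 0.84) and Tap2 -0.07 (SE 0.22, interval -0.62 to 0.49, adjusted p 0.96). Single arrays moved these estimates. Those of Tap1 ran from 0.07 without sham to 0.44 without the untreated array (X57523_at) and from 0.05 without sham to 0.57 without the early array (X57523_g_at). Those of Psmb9 ran from 0.16 without sham to 0.49 without the untreated array (D10757_at) and from 0.01 without the late to 0.33 without the early array (D10757_g_at). The 95% intervals reach up to a 1.5-fold higher mean for Psmb8 and 2.25-fold for Tap1 X57523_g_at. They measure the spread between arrays that are not replicates, so they set no bound on an effect of exposure. The standard counterpart of Psmb8, Psmb5, read 6789 in the early, 9997 in the intermediate and 9154 in the late pool, 7851 in sham and 7688 in untreated lung, with the same arrays on top.

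B2m, the light chain of class I molecules, was measured by 1 probe set made from an expressed sequence tag. It read 23657 in the early, 30860 in the intermediate and 29229 in the late pool, 26174 in sham and 25022 in untreated lung. The lowest and highest arrays differed 1.30-fold. The order was the same at equal medians, with values as deposited and at an equal 75th percentile, but not after quantile normalization. After quantile normalization, which gives all arrays one distribution, B2m read 27284 early, 26213 intermediate, 25256 late, 28078 in sham and 27123 in untreated lung, with the later phases lowest. The exposed minus unexposed estimate was 0.12 (SE 0.17, 95% interval -0.31 to 0.54, adjusted p 0.90 in limma). The upper end of this interval is a 1.46-fold higher mean, which is no bound, as the arrays are not replicates. The estimate was 0.04 without the intermediate and 0.23 without the early array.

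Cd74, the invariant chain, had 4 probe sets on 2 sequences, and they did not give the same order of arrays. X13044_g_at, the brightest, read 30522 in the early, 36707 in the intermediate and 40543 in the late pool, 33261 in sham and 32950 in untreated lung. X13044_at read 22292, 21149, 23742, 20362 and 20370. Sham and untreated differed at most 1.01-fold for either, and the late array was the highest, 1.22-fold and 1.17-fold above sham. After quantile normalization the late array was still the highest for X13044_g_at, but X13044_at was highest on the early array.

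The other pair, X14254cds_at and X14254cds_g_at, was highest on the early and lowest on the intermediate array. X14254cds_at read 10185 in the early, 5677 in the intermediate and 7653 in the late pool, 8085 in sham and 6922 in untreated lung. X14254cds_g_at read 16928, 10034, 13479, 12583 and 12058. The early array stayed highest and the intermediate lowest for this pair under all 4 scalings. Early over intermediate was 1.79-fold and 1.69-fold by this pair, against 1.05-fold and 0.83-fold by the X13044 pair. The 5′ to 3′ ratio of beta-actin and GAPDH had its highest value on the early (43.1% and 67.2%) and its lowest on the intermediate array (9.07% and 23.6%) as well. The sham array was second lowest in both ratios, at 14.7% and 25.4%. At equal medians it was second highest in X14254cds_at, but lay below the late array in X14254cds_g_at. The part of RNA or copy length in the Cd74 values was not tested. The limma estimates of exposure were 0.14, 0.11, 0.03 and 0.10 for X13044_at, X13044_g_at, X14254cds_at and X14254cds_g_at, with adjusted p-values from 0.87 to 0.99.

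**Figure D4:**
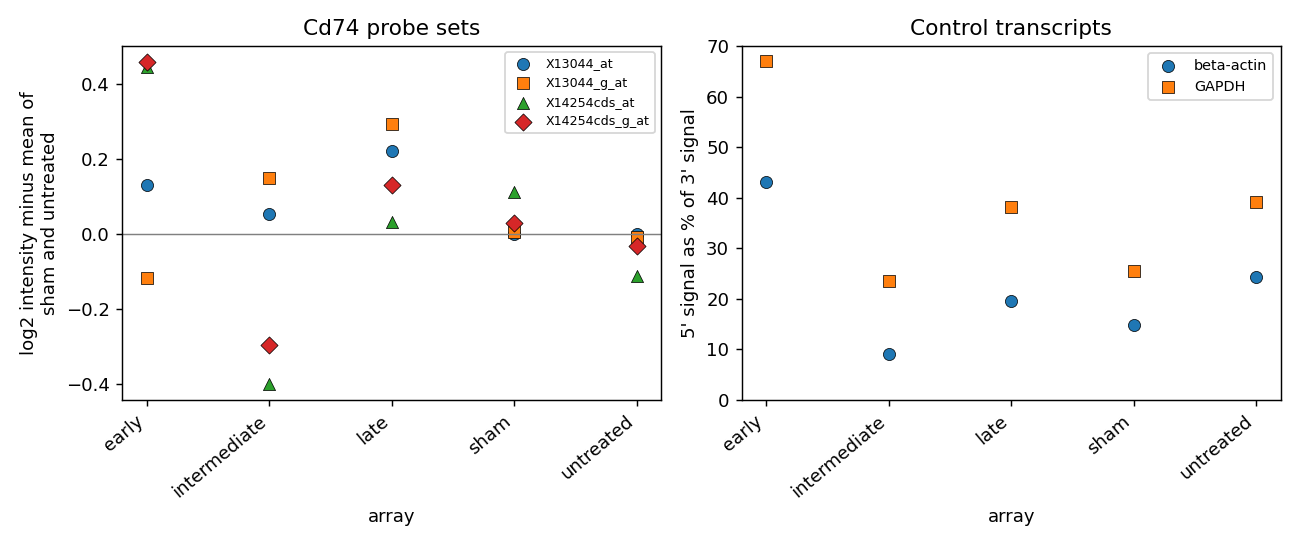
Left, log2 intensity of the 4 Cd74 probe sets minus the mean of the sham and untreated arrays, 1 point per array; right, 5′ signal as a percent of 3′ signal for the control transcripts beta-actin and GAPDH on the same arrays. The X14254cds pair is at 0.45 and 0.46 on the early and at -0.40 and -0.30 on the intermediate array, where the X13044 pair is at 0.13 and -0.12 and at 0.05 and 0.15.

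Over all 15 probe sets together the members lay close to the median of the table. The median of the members' log2 differences from the control mean was -0.04 on the early array (0 for all tested probe sets), 0.15 on the intermediate (0.07 for all) and 0.22 on the late array (0.05 for all). On the late array 13 of 15 members were above the control mean by any amount (11, 11 and 9 with values as deposited, at an equal 75th percentile and after quantile normalization), against 55.6% of all, and 6 of 15 members had their highest value there, as did 20.4% of the 4454 probe sets above the floor on all arrays. The early array was the lowest for 6 members and the highest for 4, against 27.6% and 24.2% of those probe sets. In 4 of the 15 member probe sets all 3 exposed arrays lay above both unexposed arrays (both of Irf1, Psmb9 D10757_at and Cd74 X13044_at), where 13.5% of all tested probe sets did. In 0 of 15 all 3 lay below, where 6.12% of all did. Probe sets of 1 gene are not independent, and these small shifts moved with the scaling. With values as deposited, which lowers the median exposed minus unexposed difference of all probe sets by 0.10, the 4 became 2 (Irf1 M34253_g_at and Psmb9 D10757_at) beside 7.35% of all. Members with a positive exposure estimate numbered 12 at equal medians, 8 with values as deposited, 10 at an equal 75th percentile and 7 after quantile normalization.

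Interferon signalling genes other than the members were not called on any exposed array, a count near the share of all genes. The list had 12 genes on the array, and the interferons Ifng and Ifnb1 never read above the floor, so 10 were measured. Among these Irf2 (176) and Jak1 (267) were above the floor on the early array alone, so neither could be called lower. Of 3667 genes, 2.54% were called higher and 0.30% lower on the early array, 0.873% and 0.218% on the intermediate, and 0.6% and 1.04% on the late array. Jak2, a kinase bound to interferon receptors, lay just short of the rule on the early array, at 665 against 333 in sham and 306 in untreated lung. Median differences from the control mean were 0.38 early, 0.12 intermediate and 0.05 late, beside -0.01, 0.09 and 0.07 for all 3667 genes. The brightest were the interferon regulatory factors Irf3 and Irf7 and Irf8. Irf7, which amplifies type I interferon, read 1486 in the early, 2160 in the intermediate and 2289 in the late pool, 1354 in sham and 2246 in untreated lung, so that it was low on the early and sham arrays alike. Irf3 read 2662 to 3321 and Irf8 879 to 1455.

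Of 10 measured interferon-stimulated genes 1 was called, on the late array, where 0.6% of 3667 genes were higher. This was Cxcl10, a chemokine that draws activated T cells, at 334 in the early, 332 in the intermediate and 510 in the late pool, 173 in sham and 227 in untreated lung, 2.95-fold and 2.25-fold above the controls. Its sham value lay at the edge of the floor. The early array had 0 of 10 called (2.54% of genes higher) and the intermediate array 0 (0.873% higher). List medians were 0.32, 0.13 and 0.12, beside -0.01, 0.09 and 0.07 for all genes. Sham against untreated, 2 of the 10 passed 2-fold, both lower on sham, as were 1.61% of all genes (1.55% were higher): the chemokine Ccl5, at 1028 against 2062, and the RNA editing enzyme Adar, which was under the floor on the sham array and at 460 in untreated lung.

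The class I pathway had 13 other genes measured and the class II pathway 11, and 0 of either was called on an exposed array, again near the shares of all genes given above. Class I medians were -0.05 early, 0.33 intermediate and 0.31 late, where those of all genes were -0.01, 0.09 and 0.07. Its brightest members were class I heavy chain probe sets of the RT1 family, whose near-identical genes can cross-read. RT1-CE16 read 37796 in the early, 52156 in the intermediate and 50371 in the late pool, 42169 in sham and 40702 in untreated lung, and RT1-A 31426, 36658, 39647, 32131 and 30065. RT1-CE12 read 29987, 37866, 37457, 31941 and 30034. As for B2m, the intermediate and late arrays were on top, and as for B2m this order was lost after quantile normalization, where RT1-CE16 spanned 43037 to 46022 and RT1-A 31390 to 35539. That method sets values by rank, and here it gave the early and late arrays the same value, 46022 for RT1-CE16 and 35539 for RT1-A. Such ties among bright probe sets cannot settle the order of the arrays. Class II medians were -0.05, -0.07 and 0.20. RT1-Da, a class II chain, read 17721, 20844, 24708, 20732 and 19569, with its lowest value on the early and its highest on the late array, as for Cd74 X13044_g_at. After quantile normalization its highest array was sham. RT1-DMb, at 3589, 4947, 7176, 5362 and 4877, had the same lowest and highest array as RT1-Da. RT1-Bb and RT1-Ba were instead highest on the early and lowest on the intermediate array, as for the X14254cds pair of Cd74. RT1-Bb read 7489, 4996, 6383, 5673 and 6045, and RT1-Ba 2615, 1621, 1794, 1821 and 2593. Ctss, at 5916, 6302, 7476, 7013 and 5383, was highest on the late and lowest on the untreated array.

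Cell type markers differed between arrays, some along the order of the class I genes and some on the early array. The 4 alveolar type 2 markers on the array had a summed scaled intensity of 135771 in the early, 180083 in the intermediate and 176683 in the late pool, 148888 in sham and 135666 in untreated lung. Among them Sftpb did not follow this order, at 35754 early, 35343 intermediate, 37534 late, 35879 in sham and 33067 in untreated lung. The 6 macrophage markers, whose sum is mostly Lyz2, a lysozyme that type 2 cells also make, were summed at 49290, 69114, 68838, 56275 and 51387. Among them C1qb and C1qc did not follow the order of the sum. C1qb read 2070, 2243, 2899, 1855 and 1560, highest on the late array. C1qc read 884, 780, 765, 670 and 792, highest on the early array. The order of Sftpc and Lyz2, too, was lost after quantile normalization, with the early array highest. Values tied there as well, with Lyz2 at 55047 on both the intermediate and the late array. On the early array 3 markers were called higher, among the 2.54% of genes that were. S100a8, a calcium-binding protein of neutrophils, read 2121 early, 1311 intermediate, 787 late, 816 in sham and 539 in untreated lung, and its partner S100a9, also called on the intermediate array, 2850, 2737, 1841, 1339 and 980. Cd14, a lipopolysaccharide receptor of macrophages, read 1455 early against 600 to 885 on the other arrays. The endothelial marker Pecam1 read 1222 early against 432 to 644, 2.83-fold over sham but 1.90-fold over untreated lung. The other endothelial markers on the array did not share this early rise. Kdr read 1950 early and 1741 in sham and was highest in untreated lung, at 2219. Vwf was under the floor on all arrays but the untreated one. The B cell marker Cd79b read 362 to 816, highest in untreated lung, and the 14 markers of T and NK cells were summed at 5862 to 6772. Dendritic cell markers on the array were 3, summed at 599 to 1056, and of these Clec10a read 369 to 571 on the instilled arrays and was under the floor in untreated lung. Of the macrophage markers, Csf1r and Itgam were under the floor on all arrays, as were Cxcr2 and Mmp8 of the neutrophil markers. In whole lung RNA, fewer cells of a type and less RNA per cell cannot be told apart, and the part of cell numbers in the class I and Cd74 values was not tested.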

How the data were processed

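The members and gene lists were chosen with earlier results of these data known. The authors deposited linear intensity values of 8799 probe sets on each array; the sources used here name no software or algorithm. After trimming 2% at each end, the mean of the deposited intensity was 1001.38 to 1001.63 on the 5 arrays. Control probe sets, 59 in number, served only for 5′ to 3′ ratios. Names came from the platform annotation: 7006 probe sets had 1 symbol, 308 several and 1426 none. All 9 members were found in RefSeq's table of GRCr8 by gene identifier.

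Arrays were scaled to equal medians (factors 0.931 to 1.07). Values below the 40th percentile over all arrays were set to it, and log2 was taken. Single arrays were compared by fold, without a test. Exposure was tested with limma 3.58.1 (lmFit, eBayes; R 4.3.3) across 6188 probe sets, with Benjamini-Hochberg adjustment at 0.05. Lists use 1 probe set per gene, the brightest. The number of arrays limits the precision. The steps were also run on simulated arrays with known differences. Those arrays held no differences between phases or between sham and untreated lung, so they do not show how the fit performs on these data. Named genes were all members; per pathway list, those called or, with none called, up to 3 of the brightest; and the 3 profiles nearest to the member with the widest range. Ifng, Ifnb1, Irf2, Jak1, Jak2, Ccl5, Adar, RT1-Ba, RT1-DMb and the cell type markers were named after their values were seen. Alternatives covered scaling, floor, filter, fold, control array, variance prior and each array left out.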

Additional observations from a re-analysis of the deposited data

Results flagged for a closer look

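For 6 probe sets, 1 exposed phase lay above both control arrays and another below both; with 1 array per phase these differences were not tested. The intermediate array lay above and the early array below both controls for Psmb9 D10757_g_at (log2 difference 0.54), Tap1 X57523_g_at (1.03), B2m (0.38) and Cd74 X13044_g_at (0.27). The late array lay above and the early below for the same probe sets, by 0.63, 0.91, 0.31 and 0.41. The early array lay above and the intermediate below for Cd74 X14254cds_at (0.84) and X14254cds_g_at (0.75), and the late above and the intermediate below for the latter (0.43). Scaling changed which differences took this form: there were 11 at equal medians and with values as deposited, and 12 with the other scalings.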

How the results depend on the processing

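Of 94 counts of called members, and of all probe sets past limma's adjusted threshold, recomputed under the alternatives, 89 stayed at 0. At 1.5-fold in place of 2-fold, 1 member was higher on the early array (Irf1 M34253_at) and 2 were lower on sham than on untreated (Mx1 and Mx2). Against the untreated array alone, 1 member was higher (Irf1 M34253_at) and 1 lower (Mx2) on the early array. Without a filter on dim probe sets, limma called 3 of 8740 probe sets, no member among them. Counts past the fold rule over all probe sets moved more: on the early array 93 to 491 were higher (196 as reported) and 7 to 186 lower (28), on the intermediate 30 to 274 (51) and 1 to 130 (21), on the late 19 to 178 (35) and 28 to 208 (59), and sham against untreated 21 to 570 (103) and 31 to 496 (119). The other 3 scalings alone kept early higher calls at 156 to 174. The lowest adjusted p of a member in any alternative of the limma fit was 0.26. Of 189 member estimates (log2, exposed minus unexposed), 17 changed sign, none of them past the threshold. With values as deposited they were -0.0089 for B2m, -0.017 for Cd74 X13044_g_at, -0.099 for X14254cds_at and -0.027 for X14254cds_g_at. At an equal 75th percentile X14254cds_at gave -0.074 and X14254cds_g_at -0.0027. After quantile normalization Psmb9 D10757_g_at gave -0.037, B2m -0.073, and Cd74 X13044_at -0.012, X13044_g_at -0.055 and X14254cds_at -0.10. Leaving out 1 array at a time gave -0.64 to 0.026 for Mx2 (-0.079 without the early array), -0.29 to 0.15 for Tap2, -0.18 to 0.24 for X14254cds_at and -0.083 to 0.29 for X14254cds_g_at; it gave 0.16 to 0.62 for Irf1 M34253_at, lowest without the early array, and -0.77 to -0.05 for Mx1, nearest 0 without the untreated array. Leaving out the early or the untreated array moved limma's unadjusted p list from 428 to 721 and 705 probe sets. No paired analysis was possible because each group has 1 array.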
